A study of Mus musculus with 6 samples.

Results

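Immediate early genes are switched on within minutes of a stimulus, from transcription machinery that is already in place. Here 10 of them were followed in lung fibroblasts before and after transfer into injured lungs: Egr1, Egr2, Egr3, Ier2, Ier3, Zfp36, Nr4a1, Klf2, Klf4 and Klf6. They were taken by gene symbol, and all 10 were found among the 24408 genes of the table. The choice used no measured value of the table, but it was made with earlier results of these data known.

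The donors were untreated C57BL/6 mice carrying the collagen reporter Col-GFP, and their purified lung fibroblasts gave the Untreated library. For the other libraries the cells were placed into the airways of wild-type hosts, 7 days after these were given the lung toxin bleomycin. Col-GFP cells were sorted back from the hosts 2, 4 or 7 days after transfer (Day 2, Day 4 and Day 7). The Acta2 low and Acta2 high libraries came from donors that carried Acta2-mKO1, a reporter of the smooth muscle actin gene, as well as Col-GFP, and the labels do not give its day. Col-GFP marks cells with an active collagen promoter, so a recovered cell that had lost collagen expression would have been missed by the sort. The number of mice behind each library is not given in the sources used here.

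With 1 library in each group there is no replicate check of any difference, no p-value is given for a difference between conditions, and all intervals are 95% counting intervals. The series' design text describes the Untreated cells as separated from dissociated lung by negative selection, and the transferred cells as sorted by flow cytometry. Handling and transfer therefore cannot be told apart in any comparison with Untreated. The values are tags per 1000000 (CPM) from 3' SAGE, in which a short tag near the 3' end stands for a transcript, and the libraries held 4448065 to 6175334 tags. In these sorted populations, fewer cells expressing a gene and less of its RNA per cell cannot be told apart. All 8 fibroblast markers had tags in every library, some of them few, such as Pdgfrb with 3 tags in Acta2 low. They summed to 3779 CPM at Day 2, the lowest, and 19458 CPM at Day 7, the highest. The sum was led by Dcn in Untreated and at Day 2 and by Col1a1 in the other libraries. The 11 macrophage markers summed to 0.854 to 2.27 CPM, with Cd68, Marco and Ptprc at 0 in every library. The 12 endothelial markers summed to 8.25 to 13.5 CPM, led by Eng, with Tie1 and Emcn at 0 in every library. The mesothelial sum was 45.9 CPM in Untreated and 2.73 to 10.8 CPM after transfer, and the epithelial sum was 306 CPM in Acta2 low, led by Krt8, and 12.4 to 50.1 CPM elsewhere. Smooth muscle and pericyte markers summed to 13.2 CPM in Untreated and 52.1 to 255 CPM after transfer. The part of these cells in the results was not tested.

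As background, serum, growth factors and mechanical or enzymatic handling of tissue activate MAP kinases and serum response factor, which binds the CArG box in the promoters of many immediate early genes. Signals through cyclic AMP act on other sites, of which TGACG is the core. The Egr proteins are zinc finger transcription factors that bind GC-rich DNA. Zfp36 (tristetraprolin) binds AU-rich elements of mRNAs and promotes their decay, and its targets include cytokine transcripts. Nr4a1 is an orphan nuclear receptor, Ier2 a nuclear protein and Ier3 a regulator of cell survival. The Krüppel-like factors Klf2, Klf4 and Klf6 are zinc finger proteins; Klf2 is known from quiescent endothelium and T cells, Klf4 from epithelial barriers and reprogramming, and Klf6 from injured tissue.

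The promoters show which of these control sites lie close to the start of transcription. RefSeq promoters (build GRCm38.p6, 250 bases before to 50 after the start) were listed for 7 of the 10 genes: Zfp36, Nr4a1, Klf2, Klf4, Klf6, Ier3 and Egr2, the last with several starts. Shown here are Zfp36 and Nr4a1, which were low after transfer, Egr2, which differed little, and Ier3, which was high. Capitals mark CArG boxes and TGACG on either strand.
Zfp36 (chr7:28379179-28379478, minus strand): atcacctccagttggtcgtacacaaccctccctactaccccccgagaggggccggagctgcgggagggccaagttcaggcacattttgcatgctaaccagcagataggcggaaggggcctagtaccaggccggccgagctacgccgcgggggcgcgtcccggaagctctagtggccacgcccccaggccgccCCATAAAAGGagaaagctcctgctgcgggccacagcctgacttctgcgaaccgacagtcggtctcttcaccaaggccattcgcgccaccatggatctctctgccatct
Nr4a1 (chr15:101266596-101266895, plus strand): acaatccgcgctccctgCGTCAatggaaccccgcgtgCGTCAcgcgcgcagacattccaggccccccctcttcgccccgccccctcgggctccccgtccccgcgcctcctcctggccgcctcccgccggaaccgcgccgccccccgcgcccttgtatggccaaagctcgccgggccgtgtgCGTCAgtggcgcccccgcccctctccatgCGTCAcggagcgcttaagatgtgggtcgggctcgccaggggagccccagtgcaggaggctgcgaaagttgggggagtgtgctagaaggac
Egr2 (chr10:67537619-67537918, plus strand): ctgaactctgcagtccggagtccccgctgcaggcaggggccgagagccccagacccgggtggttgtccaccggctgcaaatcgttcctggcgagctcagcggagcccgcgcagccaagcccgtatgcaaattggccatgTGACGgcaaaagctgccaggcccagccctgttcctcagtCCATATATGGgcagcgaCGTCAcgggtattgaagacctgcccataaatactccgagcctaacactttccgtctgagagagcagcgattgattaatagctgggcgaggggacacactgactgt
Ier3 (chr17:35821463-35821762, plus strand): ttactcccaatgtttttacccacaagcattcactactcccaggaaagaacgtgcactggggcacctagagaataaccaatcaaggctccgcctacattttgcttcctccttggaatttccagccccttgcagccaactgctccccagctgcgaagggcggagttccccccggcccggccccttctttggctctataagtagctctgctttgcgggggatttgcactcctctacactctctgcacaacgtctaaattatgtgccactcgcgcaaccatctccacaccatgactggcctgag

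The Zfp36 promoter held 1 CArG box, 58 to 49 bases before the start, and no TGACG. Of the 5 listed Egr2 starts, the window shown is one of 3 with a CArG box and 2 TGACG matches; of the other two, one held a CArG box alone and one held neither motif. Among the genes of the table with a listed promoter, 1.69% had a CArG box and 27.1% had TGACG in this window. Nr4a1 held 4 TGACG matches, all on the minus strand, and Klf2 and Klf4 held 1 each. The windows of Ier3 and Klf6 held neither motif. None of the 7 members with a listed promoter held the full cyclic AMP element TGACGTCA, the Egr site GCGTGGGCG or TATAAA. Among the genes of the table with a listed promoter 2.71%, 0.993% and 14.2% did. None of these overlapped another match in the members. A match of letters is a description and not a shown site. The CArG box was present in Zfp36, which was far lower after transfer, and in Egr2, which differed less. No promoter was listed for Egr1, Egr3 or Ier2. The part of these sites in the levels was not tested.

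**Figure D1:**
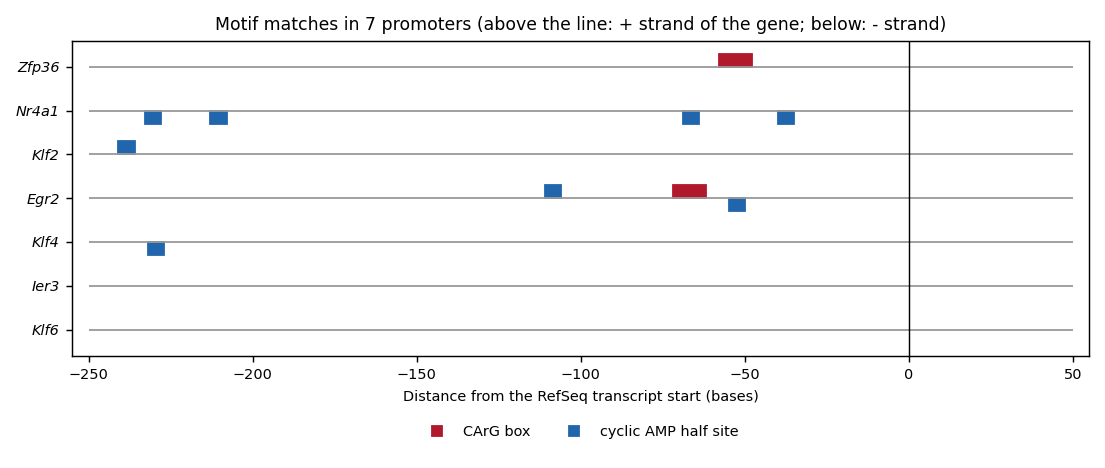
Matches to the CArG box (red) and to the cyclic AMP core TGACG (blue) in the 7 listed promoters, by distance from the transcript start in bases. Boxes above a line lie on the strand of the gene and boxes below on the other strand; the Egr2 start with the most matches is drawn, and the lines of Ier3 and Klf6 hold no box.

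The members fell into different patterns across the libraries. Zfp36, Egr1, Ier2 and Nr4a1 were highest in Untreated, low at Day 2 and lower still at Day 4, and part of the way back at Day 7. Klf2 was low at Day 2 and Day 4 and was highest at Day 7. Ier3 and Klf6 were lowest in Untreated in CPM, which for Klf6 turned with the scaling. Egr2 and Klf4 stayed within 3-fold over all libraries in CPM, and Egr3 was hardly detected.

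Together the 10 genes held 3.83% of all tags in Untreated, 0.971% at Day 2, 0.434% at Day 4 and 1.51% at Day 7, with 0.637% for Acta2 low cells and 0.475% for Acta2 high cells. Zfp36 alone made up 63.9% of the members' tags in Untreated and 28.4% at Day 4. Without Zfp36 the sum was 13814 CPM in Untreated and 3103 CPM at Day 4. The lowest sum was at Day 4 with Zfp36 and in Acta2 high without it, at 3042 CPM. The 10 most abundant genes of any kind took 49.4% of the Untreated tags and 23.97% to 38.03% of the others, which shifts all CPM values. The median measured gene stood 1.58-fold above Untreated at Day 2, 1.24-fold at Day 4 and 1.31-fold at Day 7. For the Acta2 low sort the factor was 1.34 and for the Acta2 high sort 1.20. Folds below are divided by the fold of this median gene, and the levels are in CPM as they stand.

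Zfp36 stood at 24493 CPM in Untreated, 2942 at Day 2, 1232 at Day 4, 6740 at Day 7, 2091 in the Acta2 low sort and 1704 in Acta2 high. It was the 7th most abundant gene of the Untreated library and the 103rd at Day 4. Relative to the median gene it was 13.1-fold lower at Day 2 (95% interval 12.9 to 13.3), 24.6-fold lower at Day 4 (23.97 to 25.31) and 4.75-fold lower at Day 7 (4.69 to 4.80).

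Egr1, the best known Egr factor, followed almost the same course. Its level was 4909 CPM in Untreated, 812.9 at Day 2, 312.9 at Day 4, 1343 at Day 7, 411 in the Acta2 low sort and 414 in Acta2 high. Relative to the median gene it was 9.52-fold lower at Day 2 (9.24 to 9.81) and 4.77-fold lower at Day 7 (4.65 to 4.90). The Acta2 sorts could not be told apart for Egr1 in CPM, at a ratio of 1.01 of high over low (0.948 to 1.07).

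Ier2 had 6286 CPM in Untreated, 892 at Day 2, 395 at Day 4, 3156 at Day 7, 598 in the Acta2 low sort and 563 in Acta2 high. Among these 4 genes it had the largest difference between Day 4 and Day 7, 7.62-fold higher at Day 7 (7.26 to 8.01). Against Untreated it was 11.1-fold lower at Day 2 (10.8 to 11.4) and 2.60-fold lower at Day 7 (2.56 to 2.65).

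Nr4a1 had a narrower range than the other genes of this pattern. It stood at 899 CPM in Untreated, 268 at Day 2, 168 at Day 4, 452 at Day 7, 212 in the Acta2 low sort and 163 in Acta2 high. It was 5.29-fold lower at Day 2 (5.01 to 5.60), 6.63-fold lower at Day 4 (6.13 to 7.17) and 2.60-fold lower at Day 7 (2.48 to 2.72). Its Day 4 and Acta2 high levels did not differ beyond counting error, at a ratio of 1.03 (0.931 to 1.14).

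Klf2 parted from this group at Day 7. Its level was 373 CPM in Untreated, 88.7 at Day 2, 116 at Day 4, 531 at Day 7, 64.4 in the Acta2 low sort and 111 in Acta2 high. It was 6.64-fold lower than Untreated at Day 2 (6.04 to 7.30) and 1.09-fold higher at Day 7 (1.03 to 1.15). Between Day 2 and Day 7 it was 7.31-fold higher (6.67 to 8.02), the largest such difference among the members. Klf2 is also an endothelial gene. The endothelial markers summed to 13.5 CPM at Day 7, their highest, and to 9.14 CPM in Untreated, with 5 of 12 detected in each. At Day 7 Cdh5, Kdr, Tie1, Tek, Emcn, Cldn5 and Flt1 were at 0, and Pecam1, Vwf, Erg, Egfl7 and Eng had tags. The part of these cells in the Klf2 level was not tested.

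**Figure D2:**
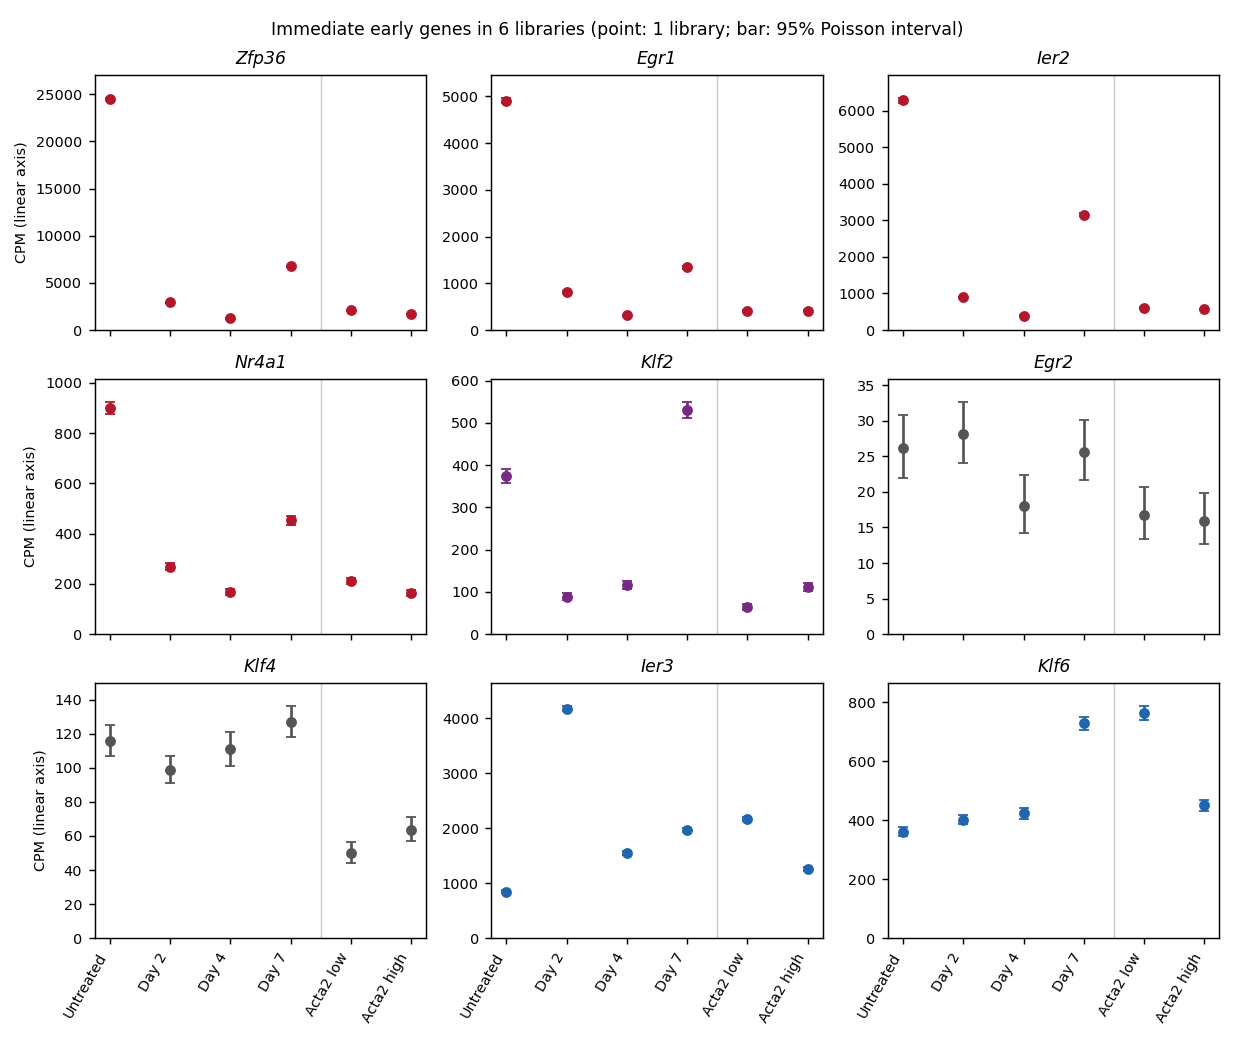
Levels in CPM (linear axes from 0) of the 9 detected members in the 6 libraries; each point is 1 library and its bar the 95% Poisson interval of the tag count. Red genes were highest in Untreated and lowest at Day 4 or, for Nr4a1, in Acta2 high; Klf2 (purple) peaked at 531 CPM at Day 7, Ier3 and Klf6 (blue) were lowest in Untreated on this scale, which for Klf6 turned with the scaling, and Egr2 and Klf4 are grey.

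Ier3 went the other way from Zfp36. It stood at 843 CPM in Untreated, 4178 at Day 2, 1558 at Day 4, 1961 at Day 7, 2164 in the Acta2 low sort and 1259 in Acta2 high. Every transferred library was above Untreated, and relative to the median gene the gene was 3.14-fold higher at Day 2 (3.05 to 3.24), 1.49-fold at Day 4 (1.44 to 1.55) and 1.78-fold at Day 7 (1.72 to 1.84).

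Klf6 had 361 CPM in Untreated, 402 at Day 2, 424 at Day 4, 728 at Day 7, 764 in the Acta2 low sort and 451 in Acta2 high. Its direction against Untreated at Day 2 and Day 4 turned with the scaling: at Day 2 it was 1.12-fold higher in CPM and 1.41-fold lower relative to the median gene (1.332 to 1.5005). Against the same baseline it was 1.55-fold higher at Day 7 (1.47 to 1.63). In Acta2 low the fold was 1.58 (1.498 to 1.67).

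Klf4 stood at 116 CPM in Untreated, 98.9 at Day 2, 111 at Day 4, 127 at Day 7, 49.9 in the Acta2 low sort and 63.7 in Acta2 high. Its neighbours in the order Day 7, Untreated, Day 4 and Day 2 did not differ beyond counting error in CPM, and both Acta2 sorts lay below them. Libraries further apart in this order did differ, with a CPM ratio of Day 7 over Day 2 of 1.28 (1.15 to 1.43). Relative to the median gene it was 3.10-fold lower than Untreated in Acta2 low (2.68 to 3.603), and in Acta2 high 2.18-fold lower (1.91 to 2.51).

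Egr2 was the least abundant detected member, at 26.1 CPM in Untreated, 28.2 at Day 2, 18.0 at Day 4, 25.6 at Day 7, 16.7 in the Acta2 low sort and 16.0 in Acta2 high. These rest on 80 to 174 tags, and the levels of Day 2, Untreated and Day 7 did not differ beyond counting error between neighbours in CPM, nor did those of Day 4, Acta2 low and Acta2 high. At Day 4 it was 1.801-fold lower than Untreated once divided by the median gene (1.36 to 2.40). Its direction at Day 2 turned with the scaling, from 1.08-fold higher in CPM to 1.46-fold lower relative to the median gene.

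Egr3 had 1 tag each at Day 7 and in Acta2 high and 0 tags in the other libraries. A count of 0 allows up to 0.486 CPM at Day 2 and up to 0.674 CPM at Day 4 (3 tags), so no fold is given. Its GENCODE transcript holds 15 CATG sites, the sequence that SAGE enzymes most often cut; the enzyme used here is not given in the sources used here.

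Counting the members past a fixed size puts them beside the other genes. A gene was measured in a comparison when its mean over the 2 libraries reached 10 CPM, which 9 of the 10 members did in every comparison and Egr3 in none. It was called when its difference of log2(CPM + 1) was at least 2, which is 4-fold. At Day 2, 4 of the 9 measured members were at least 4-fold lower than in Untreated (Egr1, Ier2, Zfp36 and Klf2), where 4.7% of 4256 measured genes were. Ier3 was the 1 member at least 4-fold higher, where 13.6% of all genes were. Under median-ratio scaling 6.82% of all genes were lower and 8.29% higher, and there Nr4a1 joined the lower members and Ier3 was no longer past 4-fold. The members' median log2 difference was -1.74, against 0.66 for all measured genes.

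At Day 4, 4 of 9 were at least 4-fold lower (Egr1, Ier2, Zfp36 and Nr4a1), against 5.11% of all genes, and 0 were higher, against 9.99%. With the 100 most abundant genes taken out of the totals these shares were 6.72% and 6.40%. The median difference was -1.68 for the members and 0.31 for all genes. Zfp36, Egr1 and Ier2 stood between the 1.04th and 1.35th percentiles of all measured genes in this comparison.

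At Day 7, 0 of 9 members were past 4-fold in either direction against Untreated, where 3.31% of genes were lower and 4.95% higher. The members' median was -0.03, against 0.39 for all genes. Relative to the median gene, Egr1 and Zfp36 were still at least 4-fold lower, where 4.18% of genes were. With a 2-fold rule in CPM 4 members passed (Egr1 and Zfp36 lower, Ier3 and Klf6 higher), where 27.9% of genes did. Ier2 and Nr4a1 were just inside it, at log2 differences of -0.994 and -0.990. Relative to the median gene both were 2.60-fold lower, while Ier3 and Klf6 were 1.78- and 1.55-fold higher. Under median-ratio scaling Egr1 and Zfp36 were at least 4-fold lower, where 4.03% of all genes were. No member was at least 4-fold higher under that scaling, where 3.66% of all genes were.

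From Day 4 to Day 7, which share no library with the contrast of Day 2 against Untreated, 4 of 9 members were at least 4-fold higher (Egr1, Ier2, Zfp36 and Klf2), where 2.23% of 4132 genes were, and 0 were lower, where 2.23% were. Under median-ratio scaling 1.91% of genes were higher and 2.50% lower, and Egr1 was just inside 4-fold at a log2 difference of 1.98. The members' median was 1.42 and that of all genes 0.07. All 9 measured members lay above the median gene in this step, although the interval of Klf4 held 1 (0.973 to 1.23). Ier2 stood at the 99.5th percentile of all measured genes, Zfp36 at the 98.9th and Klf2 at the 98.4th.

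The step from Day 2 to Day 4 was smaller. No member passed 4-fold, where 0.258% of genes were lower and 0.305% higher; 4 passed 2-fold, all lower, where 12% of genes did in either direction. Egr1, Ier3, Zfp36 and Ier2 were 2.04-, 2.11-, 1.88- and 1.77-fold lower at Day 4 relative to the median gene. In the same step Klf2 was 1.67-fold higher (1.48 to 1.88). Klf4 was higher by 1.43-fold (1.26 to 1.61) and Klf6 by 1.34-fold (1.26 to 1.42). The 3 Klf genes stood above the median gene and the other 6 measured members below it, although the interval of Egr2 held 1 (0.939 to 1.62). Between Day 2 and Day 7, Klf2 was the 1 member past 4-fold, where 3.29% of genes were higher and 4.57% lower; without the 100 most abundant genes these shares were 5.32% and 2.43%, and Ier2 passed as well. Ier2 also passed relative to the median gene, where 4.64% of genes were higher. With a 2-fold rule 4 members passed, where 32.1% of genes did.

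**Figure D3:**
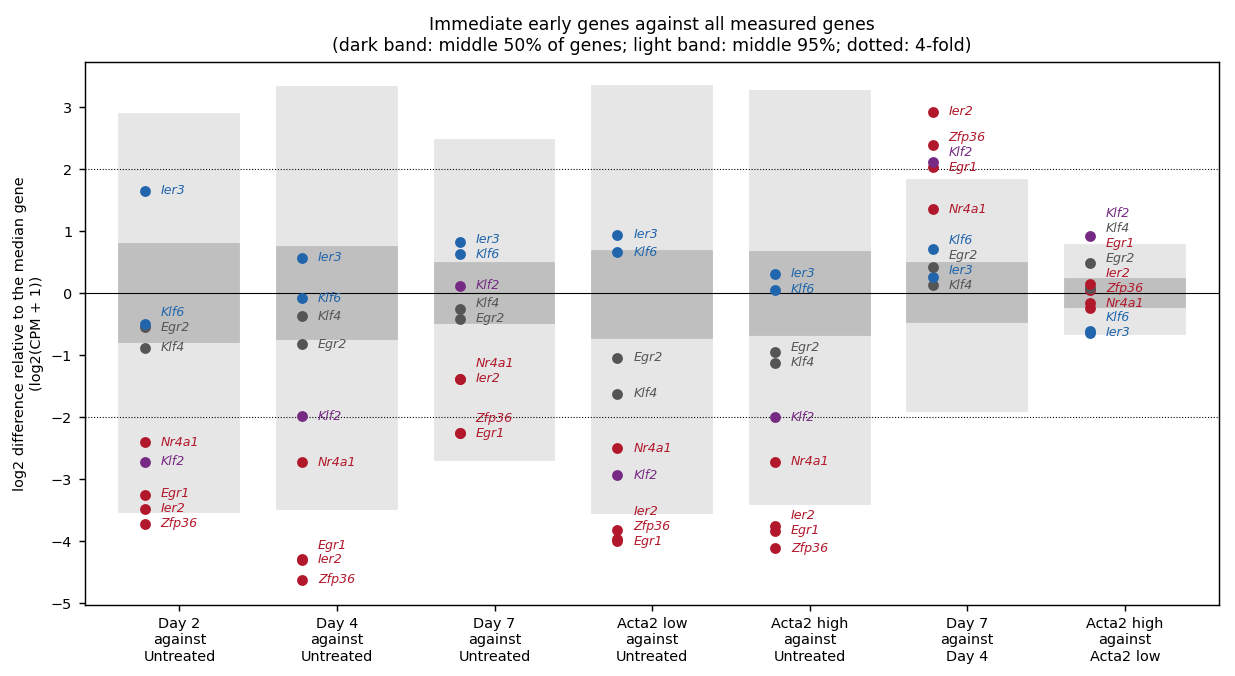
Differences of log2(CPM + 1) relative to the median gene for the 9 measured members in 7 comparisons. Dark and light bands hold the middle 50% and 95% of all measured genes and dotted lines mark 4-fold; Zfp36, Egr1 and Ier2 lie below the light band at Day 4 and in both Acta2 sorts, and above it from Day 4 to Day 7. Comparisons with Untreated share that library.

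In the Acta2 sorts Zfp36, Egr1 and Ier2 lay between their Day 2 and Day 4 levels, and Nr4a1 lay between them in Acta2 low. Against Untreated, which also differs from them in strain, 5 of 9 members were at least 4-fold lower in Acta2 low (Egr1, Ier2, Zfp36, Nr4a1 and Klf2), where 5.09% of genes were, and 4 of 9 in Acta2 high (the same without Klf2), where 5.17% were. With a 2-fold rule 8 members passed in Acta2 low, where 39.8% of genes did. No member was 4-fold higher in either, where 8.68% and 8.46% of genes were; without the 100 most abundant genes 6.33% were lower and 5.82% higher in Acta2 low, and 5.69% and 5.92% in Acta2 high. Egr1 was 16.0-fold lower in the low sort (15.3 to 16.7), and 14.2-fold in the high sort (13.6 to 14.9). Zfp36 was 15.7-fold lower in the low sort (15.4 to 16.0), and 17.3-fold in the high sort (16.9 to 17.7). These comparisons and those of the time points share the Untreated library.

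Between the sorts no member passed 4-fold, where 0.15% of 3998 genes were lower in Acta2 high and 0% higher. Klf2 was 1.91-fold higher in Acta2 high relative to the median gene (1.66 to 2.19), at the 98.5th percentile of all genes, and Klf4 was 1.41-fold higher (1.19 to 1.67). Ier3 was 1.56-fold lower in Acta2 high (1.51 to 1.61), at the 2.85th percentile. Klf6 was lower there by 1.53-fold (1.46 to 1.62), at the 3.35th percentile. Klf2 and Klf6 therefore differed between the sorts in opposite directions. For Egr2 and Ier2 the direction turned with the scaling.

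Other genes of the same programs were read from lists that were written down by function, but with earlier results of these data known. Of 8 measured AP-1 genes, which encode the partners Fos and Jun of the AP-1 dimer, 5 were at least 4-fold lower at Day 2 and 1 was higher, where 4.7% and 13.6% of all measured genes were. The 1 higher gene was Fosl2, named after its values were seen, at 7.49 CPM in Untreated and 40.8 at Day 2. It was measured only through the Day 2 library, so a difference was built into its count. At Day 4, 5 AP-1 genes were lower and 0 higher, where 5.11% and 9.99% of all measured genes were. Their median difference relative to all genes was -2.92 log2 at Day 2, -3.15 at Day 4 and -1.29 at Day 7. Fos stood at 53786 CPM in Untreated, 2712 at Day 2, 2277 at Day 4 and 15482 at Day 7. Jund, the member of the family with steady expression in many cells, differed less, at 1529, 1096, 1071 and 1584 CPM.

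Of 18 other measured immediate early genes, 1 was at least 4-fold lower at Day 2, near the 4.7% of all measured genes. At Day 4, 3 were lower, where 5.11% of all genes were. None was higher at either time, where 13.6% of all genes were at Day 2 and 9.99% at Day 4. The median of these genes relative to all genes was -1.07 log2 at Day 2 and -0.94 at Day 4. Dusp1, a phosphatase that turns off MAP kinases, was 5.75-fold lower at Day 2 (5.51 to 6.01) and 1.54-fold lower at Day 7 (1.49 to 1.58). Cyr61, a matricellular protein, was 4.09-fold lower at Day 2 (4.02 to 4.17) and 1.98-fold lower at Day 7 (1.95 to 2.01). The stress response genes Gadd45b and Gadd45g were lower at Day 2 by 2.15-fold (2.06 to 2.24) and, for the latter, by 2.31-fold (2.24 to 2.37).

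Close relatives of the members did not all share their course. Zfp36l1, which binds the same kind of element as Zfp36, stood at 392 CPM in Untreated, 126 at Day 2, 125 at Day 4 and 326 at Day 7. Zfp36l2 stood at 29.1, 57.2, 76.9 and 24.3 CPM, highest at Day 4 where Zfp36 was lowest. Nr4a2 had 41.1 CPM in Untreated and 74.5, 41.4 and 83.03 at the later times, and after division by the median gene it was 1.55-fold higher at Day 7 (1.32 to 1.82). Egr4 had 1 tag in Untreated and 33 at Day 2, 14 at Day 4 and 50 at Day 7, a ratio of 35.8 at Day 7 relative to the median gene with an interval of 6.13 to 1441. Of the 14 other Klf genes, 5 were measured at Day 2. Of these, 1 was at least 4-fold lower and 0 higher, where 4.7% and 13.6% of all genes were. The 1 was Klf15, named after its values were seen, at 25.6 CPM in Untreated and 1.94 at Day 2. It was measured only through the Untreated library, so a difference was built into its count. Klf9, known as a glucocorticoid target, was 2.95-fold lower at Day 2 (2.65 to 3.29) and 2.61-fold lower at Day 7 (2.33 to 2.92), and Klf10, a target of TGF-beta, stood at 14.3, 31.1, 18.7 and 23.4 CPM over Untreated and the 3 times.

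Of 15 genes of the upstream kinases and serum response factor, 6 were measured at Day 2. Of these, 0 were at least 4-fold lower and 1 higher, where 4.7% and 13.6% of all genes were. This was Map2k2, a kinase that activates ERK, whose log2 difference of 2.02 became 1.36 relative to the median gene, below 4-fold. Their median exceeded that of all genes by 0.36 log2; kinase activity was not measured. Mapk3, which encodes the kinase ERK1, stood at 191 CPM in Untreated, 252 at Day 2, 213 at Day 4 and 188 at Day 7. Nab2, a corepressor that binds Egr proteins, stood at 58.7, 65.3, 57.6 and 78.8 CPM. Of the 10 feedback regulators in its list, 7 were measured at Day 2. Of these, 1 was at least 4-fold higher and 0 lower, where 13.6% and 4.7% of all genes were. The 1 was Spred1, an inhibitor of the MAP kinase pathway named after its values were seen, at 2.19 CPM in Untreated and 23.97 at Day 2. It was measured only through the Day 2 library, so a difference was built into its count. Of 5 feedback regulators measured at Day 4 none was past 4-fold, where 5.11% of all genes were lower and 9.99% higher. At Day 7 none of 5 was, where 3.31% of genes were lower and 4.95% higher. In Acta2 low 1 of 5 was lower (Spry1), where 5.09% of genes were. Heat shock genes are also induced by tissue handling. Their median relative to all genes was -1.17 log2 at Day 2, -0.89 at Day 4 and -0.81 at Day 7. At these times 1, 1 and 0 of 12 heat shock genes were at least 4-fold lower, where 4.7%, 5.11% and 3.31% of all genes were. The 1 gene was Dnajb1, an inducible co-chaperone named after its values were seen, at 652 CPM in Untreated, 126 at Day 2, 106 at Day 4 and 411 at Day 7, highest in Untreated and lowest at Day 4 as Zfp36 was. Hspa1a, an inducible heat shock protein, stood at 9060 CPM in Untreated, 7485 at Day 2, 6476 at Day 4 and 8586 at Day 7. Relative to the median gene it was 1.91-fold lower at Day 2 (1.88 to 1.93). The part of tissue handling in the results was not tested.

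Transcripts with AU-rich elements that Zfp36 is known to bind were read beside Zfp36 itself. Of 8 measured genes, Ier3 among them, 5 were past 4-fold on the higher side at Day 2 (Cxcl1, Cxcl2, Ccl2, Lif and Ier3) and 0 on the lower, where 13.6% and 4.7% of all genes were. The call of Ier3 ended under median-ratio scaling, at a log2 difference of 1.81. Cxcl2 and Lif, at 4.20 and 3.66 CPM in Untreated, were measured only through the transferred library, so a difference was built into their count; Lif is named after its values were seen. At Day 4 the counts were 3 and 0, where 9.99% and 5.11% of all genes were, and at Day 7 they were 1 and 0 of 7, where 4.95% and 3.31% were. Their median relative to all genes was 1.90 log2 at Day 2, 0.81 at Day 4 and 0.56 at Day 7. Cxcl1, a neutrophil chemokine, stood at 354 CPM in Untreated, 2747 at Day 2, 903 at Day 4 and 424 at Day 7. Il6 stood at 53.2, 154, 60.7 and 40.1 CPM, and its Day 4 level did not differ from Untreated relative to the median gene beyond counting error, at a ratio of 0.921 (0.777 to 1.09). At Day 4 Zfp36 was lower than at Day 2, and so were all 8 of these genes relative to the median gene. The part of Zfp36 in the levels of these genes was not tested.

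**Figure D4:**
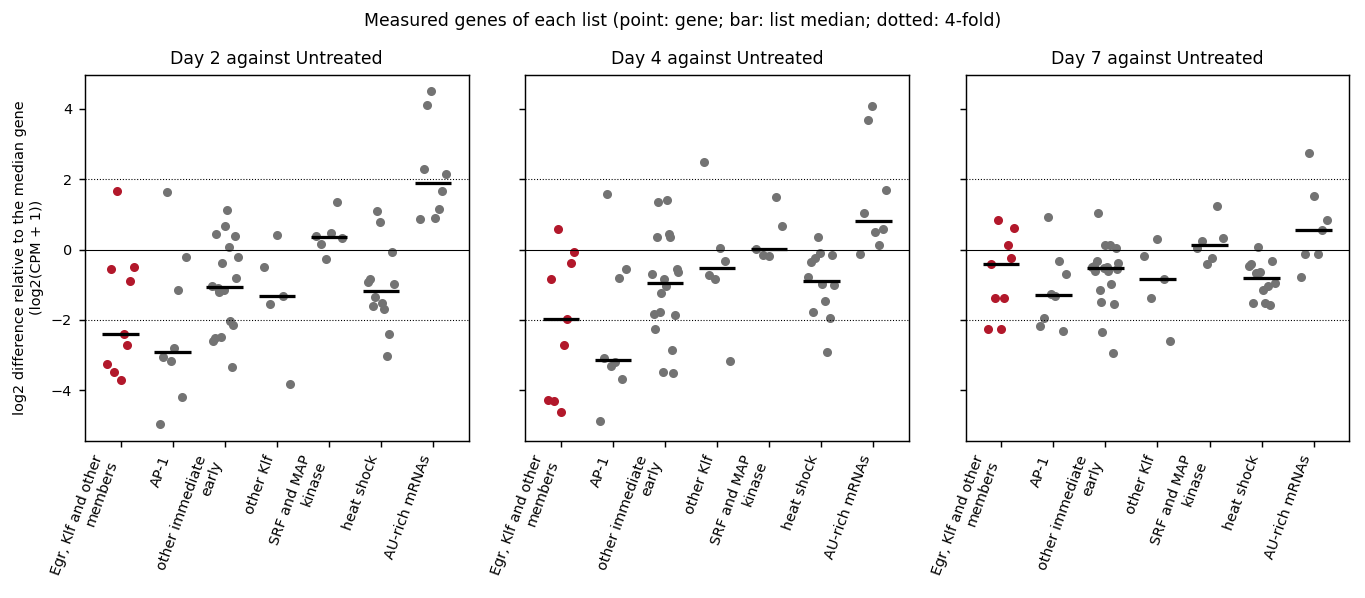
Differences of log2(CPM + 1) against Untreated, relative to the median gene, for the measured genes of 7 lists at Day 2, Day 4 and Day 7; each point is a gene, the bar is the list median and dotted lines mark 4-fold. The AP-1 bar lies at -2.92, -3.15 and -1.29, and the bar of the AU-rich transcripts at 1.90, 0.81 and 0.56; Ier3 is drawn in both the first and the last list, and the panels share the Untreated library.

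The members themselves differ in AU-rich elements, which the choice of the genes did not use. The stretch TATTTAT occurred in the 3' untranslated region of 4 of the 10 members in the GENCODE transcripts: 4 times in Ier3, 3 times in Zfp36, 2 times in Klf6 and once in Klf2. Of 17588 genes of the table with such a region 27.3% held it. Longer regions hold it more often. Among regions within 1.5 times the length of that of Ier3 (613 bases) the share was 17.2%, for Zfp36 (774 bases) 20.9% and for Klf6 (3111 bases) 53.9%. The carriers include Ier3, which was lowest in Untreated, and Zfp36, which was highest there. The part of this element in the levels was not tested.

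Measured as root mean square distance between centred log2(CPM + 1) profiles over the 6 libraries, the closest pair of members was Egr1 and Zfp36, at 0.195, followed by Ier2 and Zfp36 at 0.270 and Egr2 and Klf4 at 0.334. The most distant pair was Ier3 and Zfp36, at 1.87. The genes outside the list nearest to the mean profile of the 9 detected members, among 1411 with a mean of at least 50 CPM, were Klc1 (0.174), Nisch (0.192), Malat1 (0.207), Slc48a1 (0.219) and Zbtb20 (0.219). Malat1, a nuclear long noncoding RNA, stood at 717 CPM in Untreated, 258 at Day 2, 210 at Day 4 and 667 at Day 7. The nearest member to that mean was Nr4a1, at 0.246, and 8 genes outside the list lay nearer than it, while 855 lay nearer than Ier3 at 1.12.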

How the data were processed

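The authors deposited 1 table of CPM values for 6 libraries, made by 3' SAGE from PCR-amplified cDNA, as the labels' protocols state. Alignment used BWA 0.6.2 and build mm9, per the submitters' processing notes. How tags were assigned to genes, and whether strand was used, is not given in the sources used here. Of the deposited CPM values 100% were whole multiples of 1 tag within 0.001, which gave tag counts and depths. The members and lists were chosen with earlier results of these data known. PCR copies were not marked, so intervals and floors (3 tags) cover counting error only. At 18.0 CPM, the Egr2 level of Day 4, the 95% Poisson interval is 14.3 to 22.4 CPM.

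Groups came from sample titles. For 9 comparisons, differences of log2(CPM + 1) were taken over genes with a mean of at least 10 CPM and called at 2 or more; the pseudocount understates folds of low genes. Folds are CPM ratios divided by that of the median gene, with exact conditional (Clopper-Pearson) intervals. Of the other lists, the 4 genes with the highest mean CPM could be named, and of genes outside the lists the 6 nearest to the members' mean profile, of which 1 is not reported here; genes named outside these rules are marked in the text as chosen after their values were seen. In 25 rows a symbol turned into a date was restored from the row's title. No per-sample column was left unused. Both the size rule and the intervals were tested on simulated data with counting error only, so PCR copies and variation between samples were not covered. Promoters came from RefSeq (GRCm38.p6), transcripts from GENCODE, neither of the authors' build, so no position was joined to the table. Python 3.11.15, numpy 2.4.6, scipy 1.17.1 and pandas 2.3.3 were used.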

Additional observations from a re-analysis of the deposited data

Results flagged for a closer look

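Klf2 stood on opposite sides of Untreated at different times after transfer. Its CPM ratio to Untreated was 0.238 at Day 2 and 0.311 at Day 4, but 1.42 at Day 7, and each counting interval lay wholly on its side of 1. Each time is 1 library, so the difference between the times was not tested, and all 3 ratios share the Untreated library. Relative to the median gene the Day 7 ratio was 1.09 (1.03 to 1.15). No group holds the 4 or more samples that a search for outlying samples needs.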

How the results depend on the processing

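The count of members past 4-fold against Untreated at Day 7 was 0 as reported, 2 under median-ratio scaling, 2 without the 100 most abundant genes, 2 relative to the median gene (added after seeing the data) and 4 with a 2-fold rule. For Day 7 against Day 2 the count was 1, and it was 2, 2, 2 and 4 in the same order. The 2-fold rule gave 8 in place of 5 for Acta2 low against Untreated and 4 in place of 0 for Day 4 against Day 2. The other counts stayed within 1.5 times under the alternatives run, though the members behind them could differ: at Day 2 the 5 called members were 4 lower and 1 higher as reported and 5 lower and 0 higher under median-ratio scaling. Of the 81 log2 differences of members, none of those past 4-fold changed sign; 65 moved beyond their counting interval under median-ratio scaling and 0 with a pseudocount of 5 CPM. An exact binomial test of the tags, which compares 2 libraries and not the conditions, had an adjusted p below 0.05 for 3493 of 4256 genes at Day 2, among them all 778 past 4-fold. No paired analysis was possible because each group is 1 library. Depth limits Egr2 and Egr3 most.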

Other observations

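Within the Klf family, a pair of genes named after their values were seen went in opposite directions. Klf5, a factor of proliferating cells, stood at 2.38 CPM in Untreated, 14.7 at Day 2, 22.3 at Day 4, 14.9 at Day 7, 37.7 in the Acta2 low sort and 19.2 in Acta2 high. Klf15, a metabolic regulator and glucocorticoid target, stood at 25.6 CPM in Untreated, 1.94 at Day 2, 2.70 at Day 4, 4.78 at Day 7, 1.57 in the Acta2 low sort and 1.797 in Acta2 high. All 5 libraries of transferred cells were above Untreated for Klf5 and below it for Klf15. Both genes were chosen for these values, so their opposite directions were built into the choice. On the low side Klf5 rests on 13 tags in Untreated, and Klf15 on 8 to 28 tags in the transferred libraries.

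Socs3, an inhibitor of cytokine signalling and also named after its values were seen, was highest in Untreated. It stood at 661 CPM in Untreated, 101 at Day 2, 71.0 at Day 4 and 112 at Day 7. Btg2, an antiproliferative gene chosen in the same way, stood at 624, 161, 218 and 586 CPM. At Day 7 it was close to Untreated in CPM, where the median gene stood 1.31-fold above Untreated. Myc, a growth regulator chosen in the same way, stood at 45.3, 158, 77.3 and 38.6 CPM, highest at Day 2 as Ier3 was.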
